A study of Homo sapiens with 6 samples.

Results

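The genes CDK11B and CDK11A are near-identical copies of a cyclin-dependent kinase that lie close together at 1p36.33, near the end of the short arm of chromosome 1. RNA from the interval that holds this pair was examined in the peaks of 3 immunoprecipitates made with an antibody to RBM8A from AGS cells. The members were the peaks with at least 1 bp in chr1:1570603-1655777 (hg19, counted from 1), an interval of 85175 bp with CDK11B at its left end and CDK11A at its right end. They numbered 8 of 5437 peaks in all, with 3 of 1480 in replicate 1, 3 of 2155 in replicate 2 and 2 of 1802 in replicate 3. The interval was selected on the fold, width and recurrence of its peaks in these same lists, so all of these values are given as a description, with no test.

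AGS is an established human line of gastric adenocarcinoma cells, labelled wild type and grown untreated. The series has 6 samples, 3 immunoprecipitates with the RBM8A antibody and 3 inputs, all with 1 batch label. The immunoprecipitates each had 1 peak list, and the inputs were not analysed here. No label names a precipitate with a nonspecific antibody, so specific and nonspecific recovery of RNA cannot be told apart. The labels do not say whether replicates were separate cultures, so their spread may be technical. The lists do not give read totals, so sequencing depth is unknown.

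CDK11 kinases, once called PITSLRE kinases, pair with the L-type cyclins and act in transcription and in the splicing of messenger RNA, where they phosphorylate the spliceosome subunit SF3B1. A shorter protein from the same genes acts in mitosis. RBM8A, also named Y14, forms the core of the exon junction complex with MAGOH and EIF4A3. This complex is left on messenger RNA upstream of exon junctions after splicing and takes part in export, translation and nonsense-mediated decay.

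Both kinases are read from the minus strand in RefSeq, so the right end of the interval is the start side of CDK11A and the left end is the 3′ side of CDK11B. In the gene order of the RefSeq table (GRCh38.p14), SLC35E2B, the pseudogene LOC100288379 and the transcribed pseudogene MMP23A lie between the kinases. MMP23B, which encodes a matrix metalloproteinase, is the neighbour on the CDK11B side, and the transcribed pseudogene SLC35E2A is the neighbour on the CDK11A side. SLC35E2B belongs by name to a family of solute carriers. The coordinates of that table are of another build and were not set against the peaks, so summits are placed relative to the outer ends of the interval and not to exons, introns or UTRs.

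The likeness of the copies is shown by the 250 bases upstream of each start in RefSeq (GRCh38.p14, minus strand, chr1:1659005-1659254 for CDK11B and chr1:1724358-1724607 for CDK11A), printed 5′ to 3′ with the longest run common to both in capitals.
CDK11B: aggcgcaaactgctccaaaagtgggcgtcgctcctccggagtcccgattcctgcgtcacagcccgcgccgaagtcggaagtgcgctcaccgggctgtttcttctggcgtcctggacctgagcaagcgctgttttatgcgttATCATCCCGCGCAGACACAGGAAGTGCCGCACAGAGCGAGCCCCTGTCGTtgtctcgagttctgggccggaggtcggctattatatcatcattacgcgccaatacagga
CDK11A: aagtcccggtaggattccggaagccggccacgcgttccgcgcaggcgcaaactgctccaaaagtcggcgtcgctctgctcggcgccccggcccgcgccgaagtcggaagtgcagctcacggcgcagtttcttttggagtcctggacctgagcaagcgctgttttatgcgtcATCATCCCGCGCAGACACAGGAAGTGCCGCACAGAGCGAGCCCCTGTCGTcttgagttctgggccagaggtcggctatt

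The run in capitals is 50 bases long and spans bases 142 to 191 of the CDK11B stretch and 172 to 221 of the CDK11A stretch. Searched for on either strand, it was found in 2 of the 35116 upstream sequences in the table, which are those of these kinases. The run was defined from these 2 stretches, so its presence in them was given. Aligned end to end with free outer gaps, 194 of 205 paired bases were identical (94.6%). Between the outer gaps the alignment had 226 columns, 21 of them gaps, and identity over all of these columns was 85.8%. The stretches lie upstream of these starts, so they show the likeness of the copies and are not sequence of the recovered RNA. The sources used here do not say how reads that match both copies were placed.

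Each replicate had a single very wide peak on the CDK11B side that ran past the middle of the interval, and 1 or 2 narrower peaks on the CDK11A side. In replicate 1 the wide peak ran from 1572487 to 1625668, over 53182 bp. In replicate 2 it ran from 1571183 to 1622828, over 51646 bp. In replicate 3 it ran from 1571174 to 1635773, over 64600 bp. Its mean width was 56476 ± 7077 bp (SD, n = 3), and it spanned 62.4%, 60.6% and 75.8% of the interval in replicates 1, 2 and 3. A width of at least 50 kb was reached by 3 of the 8 members, and by 1.89%, 1.35% and 1.5% of all peaks in replicates 1, 2 and 3. A width of at least 10 kb was reached by 6 of the 8, and by 11.2%, 8.12% and 9.05% of all peaks. Width had helped to choose the interval, so nothing is read from these shares.

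The left ends of the wide peaks lay just inside the CDK11B end of the interval, at 1884, 580 and 571 bp from it in replicates 1, 2 and 3. Those of replicates 2 and 3 were 9 bp apart, and that of replicate 1 was 1304 bp from replicate 2. The right ends passed the midpoint of the interval by 12478, 9638 and 22583 bp. They differed by 2840 bp between replicates 1 and 2, and by 10105 and 12945 bp between these and replicate 3. The left end was thus placed more alike than the right end, where replicate 3 stood apart from the others.

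On the CDK11A side, replicate 1 had a peak of 20303 bp from 1630303 to 1650605 and one of 3255 bp from 1651084 to 1654338. In replicate 2 the peaks were 2553 bp, from 1636250 to 1638802, and 11946 bp, from 1640960 to 1652905. Replicate 3 had 1 peak of 16716 bp from 1636351 to 1653066. The first start on this side differed by 101 bp between replicates 2 and 3, whereas in replicate 1 it lay closer to CDK11B. From the start of the wide peak to the start of the next peak the distance was 57816, 65067 and 65177 bp in replicates 1, 2 and 3. The last peak ended 1439, 2872 and 2711 bp short of the right end of the interval. No member in any list therefore reached the CDK11A end, its start side, and all 8 members lay wholly inside the interval.

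**Figure D1:**
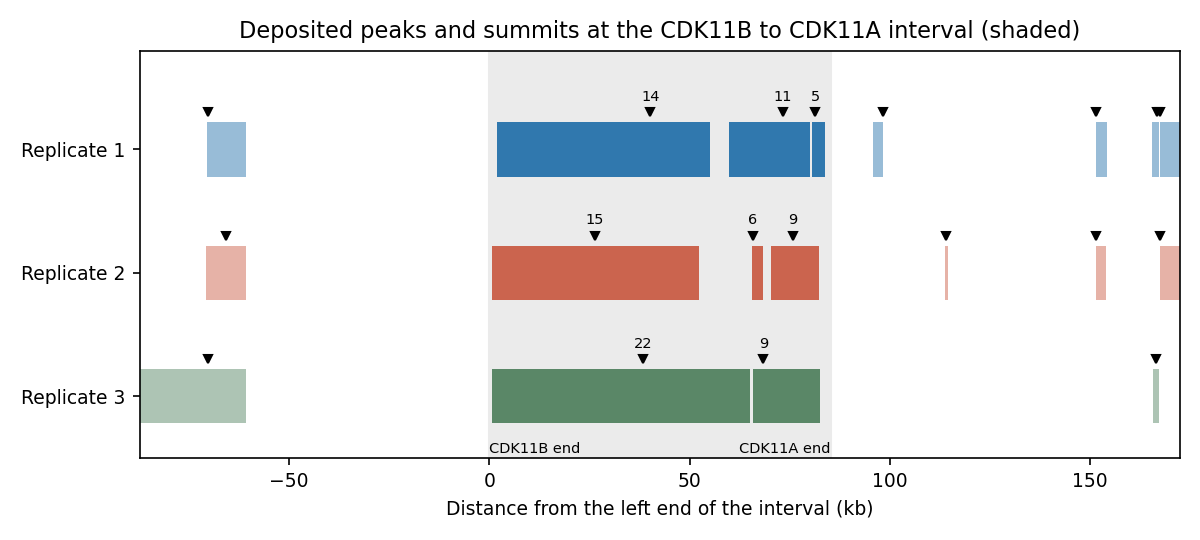
Deposited peaks (bars) and summits (triangles) of each replicate against distance in kb from the left end of the interval, with the interval shaded, peaks outside it pale, and the recovered number of fragments at the summit of each member printed above it. A wide peak starts near the CDK11B end in every replicate, and gaps of 4634, 13421 and 577 bp part it from the next peak in replicates 1, 2 and 3.

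No single deposited peak bridged the interval from end to end. The inner ends of the genes were not used, so it was not determined whether a peak overlaps both kinases. Bridging was defined as a peak that covers the midpoint of the interval and reaches to within 10 kb of both of its ends or past them, and 0 of 3 replicates had one. The wide peak met this on the left in every replicate but stopped 30109, 32949 and 20004 bp short of the right end. The gap to the next peak was 4634 bp in replicate 1 (1625669 to 1630302), 13421 bp in replicate 2 (1622829 to 1636249) and 577 bp in replicate 3 (1635774 to 1636350). Replicate 3 was the closest to an unbroken span and replicate 2 the farthest from it. Within the CDK11A side, a gap of 478 bp in replicate 1 and one of 2157 bp in replicate 2 separated the remaining peaks.

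The answer depended on how peaks were joined, a setting chosen after the data were seen. With gaps of at most 1 kb closed, 1 replicate was bridged, namely replicate 3, where the joined peak ran from 1571174 to 1653066 over 81893 bp. With gaps of at most 5 kb closed, replicate 1 was bridged as well, from 1572487 to 1654338 over 81852 bp. With gaps of at most 15 kb closed, all 3 were bridged, but in replicate 1 the joined peak then took in the next peak outside the interval and ran to 1668903, which is 13126 bp past the right end. If a peak may not end more than 10 kb past an end, 2 replicates were bridged at that setting. In replicate 2 it ran from 1571183 to 1652905. The sources used here do not give the distance at which the caller itself joined nearby signal.

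Peaks covered 90.1%, 77.7% and 95.5% of the interval in replicates 1, 2 and 3, a mean of 87.7% ± 9.14 (SD, n = 3). In a window of the same length to the left, the covered share was 11.4%, 11.6% and 28.7%. In one to the right it was 11.6%, 7.08% and 1.81%. The interval was covered more fully than either flank in every replicate, and it had been picked from these lists. Of its bases, 64262 (75.4%) were covered in all 3 lists, 12512 (14.7%) in 2, 6391 (7.50%) in 1 and 2010 (2.36%) in none.

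The bases common to all 3 lists fell into 4 segments. The longest was 50342 bp, from 1572487 to 1622828, on the CDK11B side and through the midpoint. The other 3, on the CDK11A side, ran from 1636351 to 1638802 (2452 bp), from 1640960 to 1650605 (9646 bp) and from 1651084 to 1652905 (1822 bp). Between the longest segment and the next, the 4634 bp from 1625669 to 1630302 were covered in replicate 3 alone. Bases in no list lay only at the outer ends, 571 bp at the CDK11B end and 1439 bp at the CDK11A end. Each of the 8 members was overlapped in both other replicates, compared with 32.4%, 22.2% and 26.5% of all peaks in lists 1, 2 and 3. Recurrence was known when the interval was chosen, so nothing is read from this count.

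In the wide peak, the summits, or points of highest signal, lay farther apart between replicates than the left ends. The summit was at 1610797 in replicate 1, 1596919 in replicate 2 and 1608861 in replicate 3. These points lie 40.2, 26.3 and 38.3 kb from the CDK11B end, or at 47.2%, 30.9% and 44.9% of the interval. All 3 were left of the midpoint and well inside the interval, away from its ends. Replicates 1 and 3 had summits 1936 bp apart, and that of replicate 2 was 11942 bp from replicate 3 and 13878 bp from replicate 1. The inner ends of the genes on hg19 were not used, so it was not determined whether these summits lie in CDK11B or in the genes listed between the kinases, and the wide peak is not assigned to either kinase. Within its own peak the summit stood at 72.0%, 49.8% and 58.3% of the width.

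On the CDK11A side, the strongest peak had its summit at 1643779 in replicate 1, 1646278 in replicate 2 and 1638987 in replicate 3. These points are 11998, 9499 and 16790 bp from the CDK11A end. Between replicates, these summits spread over 7291 bp and the starts of the same peaks over 10657 bp. The strongest peak was the first on that side in replicates 1 and 3 but not in replicate 2. The spread of these starts therefore compares unlike pieces and was not set against that of the wide peak. The smaller peaks had summits at 1651952 in replicate 1 and 1636423 in replicate 2. The closest summits of different replicates anywhere in the interval were the 1936 bp named above. Of 16 pairs of a member and another list, the summit fell inside a peak of the other list in 15. The exception was the summit of replicate 3 at 1638987, which fell in the gap of 2157 bp between the peaks of replicate 2 on the CDK11A side.

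Fold enrichment, the authors' own value for each peak, is the signal at the summit relative to the level their caller expected there. Which sample gave that level is not stated. For the wide peak it was 10.5 in replicate 1, 11.4 in replicate 2 and 16.7 in replicate 3, and the list medians were 4.15, 4.16 and 3.97. It ranked 8 of 1480, 10 of 2155 and 4 of 1802 by fold, and 28, 28 and 23 by width. A fold of at least 10 was found in 3 members, the wide peak of each replicate, and in 0.676%, 1.07% and 0.943% of all peaks in lists 1, 2 and 3. As the interval was picked with these folds known, nothing is read from that count either.

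Peaks on the CDK11A side had lower folds than the wide peak in every replicate. The strongest of them had a fold of 8.43 in replicate 1, 7.14 in replicate 2 and 7.28 in replicate 3. Their mean was 7.62 ± 0.709 (SD, n = 3). It ranked 23, 86 and 67 in its list. The wide peak exceeded it by a factor of 1.25, 1.60 and 2.30. The smaller peak of replicate 1 had a fold of 4.22, close to the list median of 4.15. That of replicate 2 had a fold of 5.00, above the list median of 4.16, at rank 456 of 2155.

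The number of fragments at each summit was worked back from the deposited fold and p-value. For the wide peak it was 14 in replicate 1, with an exact 95% Poisson interval of 7.65 to 23.5. It was 15 in replicate 2 (8.40 to 24.7) and 22 in replicate 3 (13.8 to 33.3). Each value lies inside the intervals of the others, but read totals are unknown. The counts therefore do not show whether recovery differed between replicates. Poisson intervals cover counting error only. Reads lack molecular identifiers, and a summit is picked as the highest point of its peak.

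The strongest peak on the CDK11A side had 11 fragments at its summit in replicate 1 (5.49 to 19.7) and 9 in each of replicates 2 and 3 (4.12 to 17.1). The wide peak was higher in 3 of 3 replicates. In replicates 1 and 2 each value lay inside the other's interval. In replicate 3 neither value lay inside the other's interval, although the intervals overlapped. The difference was not tested, because the folds behind these counts had helped to choose the interval. Each count is also the highest point of its peak, and the peaks were of unlike width. The smaller peaks had 5 fragments in replicate 1 (1.62 to 11.7) and 6 in replicate 2 (2.20 to 13.1), where the lowest in any list was 4 and the median 6.

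**Figure D2:**
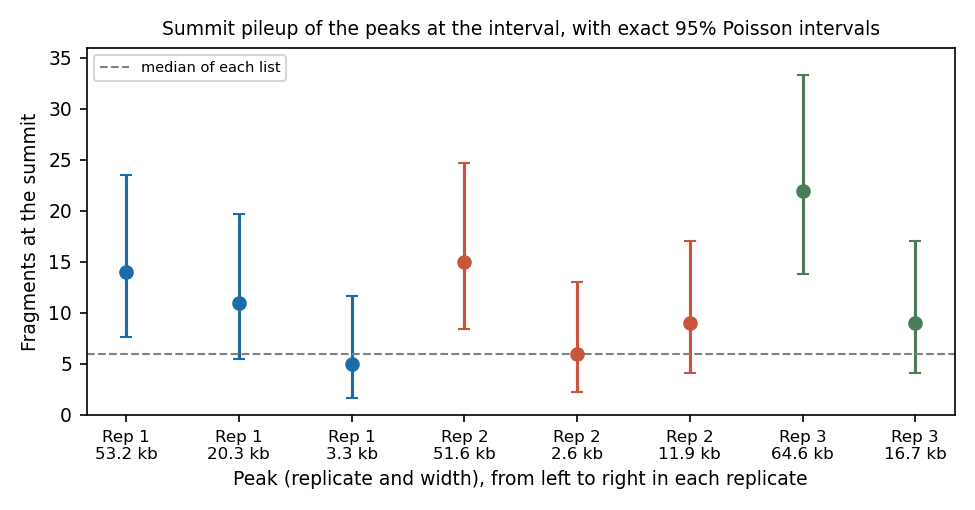
Fragments at the summit of each of the 8 members (points) with exact 95% Poisson intervals (bars), ordered from left to right along the interval within each replicate, and the median of 6 fragments of each list as a dashed line. The wide peak is the highest in each replicate, with 14, 15 and 22 fragments, and its interval overlaps that of the next peak in all 3.

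All 8 members had their summit where the expected level was within 0.5% of the lowest in the list (0.422, 0.400 and 0.374 fragments in replicates 1, 2 and 3), as had 50.5%, 42.6% and 40.1% of all peaks. With the expected level at its lowest, fold there depends on the pileup alone. The wide peak therefore stood lower by pileup than by fold, at rank 159 of 1480, 237 of 2155 and 105 of 1802. Its −log10 q was 14.5, 16.5 and 28.9, and 6 of the 8 members reached a −log10 q of 5, compared with 13.4%, 15.6% and 16.9% of all peaks in lists 1, 2 and 3. The members below it were the smaller peaks, with 2.40 in replicate 1 and 3.75 in replicate 2.

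**Figure D3:**
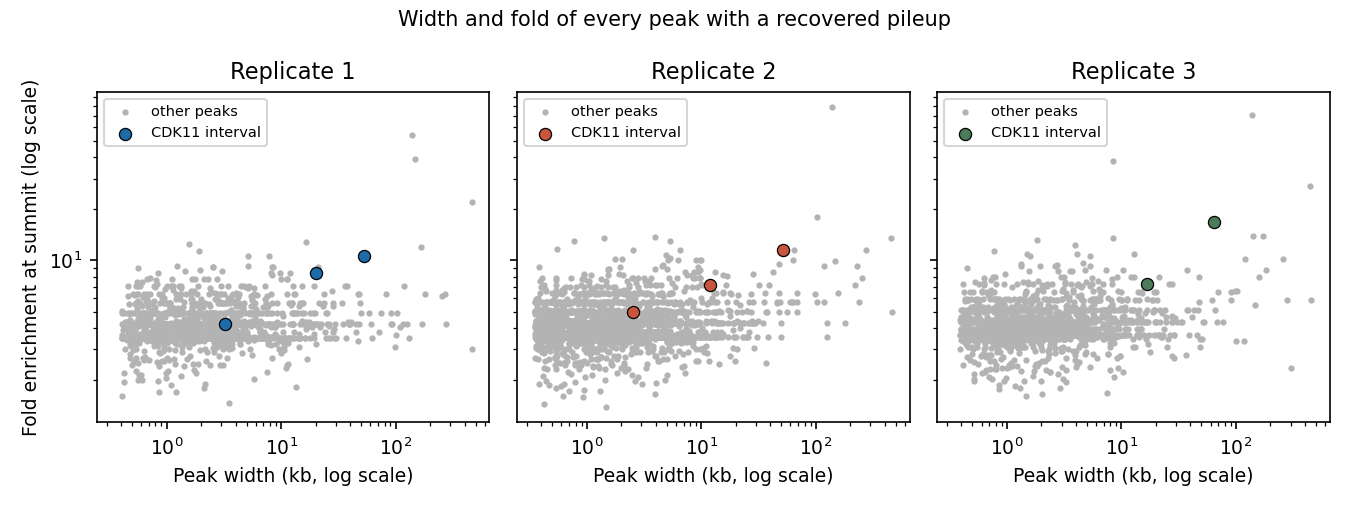
Fold enrichment at the summit against peak width, both on log scales, for every peak with a recovered pileup in each replicate, with members as large coloured points and other peaks in grey. The wide peaks, with widths of 53182, 51646 and 64600 bp and folds of 10.5, 11.4 and 16.7, lie at the upper right, and the smaller peaks of replicates 1 and 2 lie within the bulk of their lists.

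Called peaks covered a smaller share of either flank than of the interval. The nearest peak to the left ended 60700, 60877 and 60759 bp away in replicates 1, 2 and 3, with folds of 8.38, 10.0 and 2.75 and 18, 13 and 13 fragments at the summit. To the right, the nearest peak began 10472 bp away in replicate 1, with a fold of 4.22 and 5 fragments, the same as the smaller member of that replicate. It began 28606 bp away in replicate 2, with a fold of 5.72 and 7 fragments, and 80392 bp away in replicate 3, with a fold of 4.37 and 5 fragments. The left neighbour ended at 1509903, 1509726 and 1509844, much the same place in the 3 lists, and the nearest right neighbours were different peaks. Farther to the right some peaks recurred, such as 1721990 to 1724728 in replicate 1 and 1722010 to 1724561 in replicate 2.

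Among regions found in all 3 lists, 45 of 433 had a widest peak of at least 10 kb in every list, the CDK11 interval included. Between replicates, the largest difference in the position of the widest peak of the CDK11 interval was 1313 bp at its left end, 12945 bp at its right end and 13878 bp at its summit. In the other 44 regions the median was 521 bp at the left end, 758 bp at the right end and 10263 bp at the summit. The right end differed by less in 35 of the 44 and by more in 9, the left end by less in 26 and the summit by less in 25. The loosely placed summit thus lay near the middle of the other wide regions, and the right end lay toward their upper end. The expected level was at its lowest in every list for 12 of the 44.

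**Figure D4:**
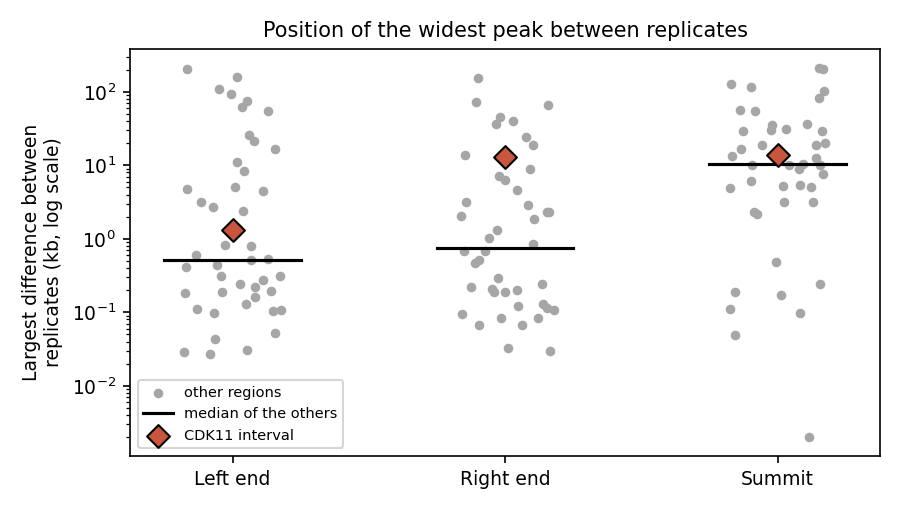
Largest difference between replicates in the left end, right end and summit of the widest peak, in kb on a log scale, for the CDK11 interval (diamond) and the other 44 regions whose widest peak was at least 10 kb in every list (grey), with the median of the others as a line. The diamond lies at 1313, 12945 and 13878 bp, above the median of the others in all 3 measures and farthest above it at the right end.

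The widest peak was at least 50 kb in every list in 15 regions, and by mean fold the CDK11 interval ranked 4 among them. The 3 with the nearest mean fold on the log2 scale are given by position. The most like was on chromosome 16 from 29394699 to 29536934, with folds of 3.65, 17.9 and 13.8 and pileups of 15, 24 and 18 in replicates 1, 2 and 3. Its widest peak was 101565, 101834 and 141419 bp, longest in replicate 3 as at the CDK11 interval. The next was on chromosome 7 from 102115052 to 102286262, with folds of 11.9, 6.43 and 13.8 and pileups of 16, 8 and 18. There the lists held 2, 10 and 1 peaks, and the longest unbroken peak was again that of replicate 3, at 171135 bp against 166989 and 68737 bp. In some of the other regions of at least 50 kb, replicate 1 or replicate 2 had the longest peak instead.

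The remaining one was on chromosome 1 from 17067319 to 17215504, with folds of 39.2, 9.85 and 5.45 and pileups of 59, 56 and 72. It was a single peak of 148029, 148186 and 148032 bp, whose ends differed by at most 27 bp on the left and 130 bp on the right. The folds of the CDK11 interval were 12.9 ± 3.35 (SD, n = 3), and the SDs of the regions given by position were 7.32, 3.85 and 18.3. This difference was not tested. Most of the other regions of at least 50 kb had a lower SD than the CDK11 interval, whereas all those given by position had a higher one. Fold also depends on the expected level, which was at its lowest in every list at the CDK11 interval. It was so in no list at the region on chromosome 1, where the pileups of 59, 56 and 72 varied less than the folds. The regions given by position were chosen for their likeness in fold, and nothing is read from that likeness.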

How the data were processed

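Peaks were analysed from 3 anti-RBM8A immunoprecipitates of AGS cells. The tools named in the submitters' processing notes are MACS2, HISAT2, GATK, SAMtools and FastQC, with no version or setting stated. The notes name hg38, but sequence names in the lists are those of hg19, and positions were taken as hg19 and not converted. The authors called peaks per replicate. For every peak the deposited lists hold a fold (a ratio of signal to expected level), a −log10 p-value, a −log10 q-value, and a score that is 10 times the −log10 q without decimals and was not used.

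Members were the peaks with at least 1 bp in the interval. The members and lists were chosen with earlier results of these data known. Named regions were fixed by a rule: the 3 other shared regions with widest peaks of at least 50 kb in every list and the nearest mean fold. The kinase's partner genes were not assigned to peaks, since no annotation of hg19 was used. The pileup at a summit was taken as the whole number, at most 400, whose fold (1 added to pileup and expected level) and Poisson −log10 p-value matched the deposited ones within 0.0005. This succeeded for 1476 (replicate 1), 2150 (replicate 2) and 1800 (replicate 3) peaks and for all 8 members. The search was tested on simulated data. Upstream sequences were aligned with Biopython 1.88 (match 2, mismatch -2, gap opening -5, gap extension -1). Other software was scipy 1.17.1, numpy 2.4.6, pandas 2.3.3, matplotlib 3.10.9 and Python 3.11.15. Alternatives were a stricter q or fold, other definitions of overlap and bridging, joined peaks, and leaving out each replicate. No test across samples was made.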

Additional observations from a re-analysis of the deposited data

How the results depend on the processing

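No single peak bridged the interval with a reach limit of 10 kb or with a coverage of at least 80% (0 replicates bridged in each). Limits of 5 or 2 kb, a −log10 q of at least 5 and leaving out any 1 replicate also gave 0. These settings are stricter than the 10 kb limit or use fewer lists, so they could give nothing else. No wider limit was tried. The wide peak of replicate 3 stopped 20004 bp short of the right end and spanned 75.8% of the interval. Joining peaks, chosen after the data were seen, gave 1, 2 and 3 bridged replicates for gaps of at most 1, 5 and 15 kb. At 15 kb the joined peak of replicate 1 ended 13126 bp past the interval, and 2 replicates were bridged if no peak may end over 10 kb past it. The mean number of peaks was 2.67, with 2 at a −log10 q of at least 5, 2.33 at a fold of at least 5, and 2.5 to 3 without 1 replicate. The mean fold of the wide peak was 12.9, or 3.17 when divided by the median of its list, which is another scale, and 10.99 to 14.1 without 1 replicate. Its mean pileup was 17, and 14.5 to 18.5 without 1 replicate. Its mean width was 56476 bp, 62240 bp with gaps of at most 1 kb joined, and 52414 to 58891 bp without 1 replicate. Single replicates decided the spread of its position, which without 1 replicate was 9 to 1313 bp at the left end (9 without replicate 1), 2840 to 12945 bp at the right end (2840 without replicate 3) and 1936 to 13878 bp at the summit (1936 without replicate 2). No paired analysis was possible because the inputs that share replicate numbers with the immunoprecipitates were not analysed here. Summit pileups of 5 to 22 fragments limit what the members can show.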
